A study of Caenorhabditis elegans with 2 samples.

Results

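The genes of small nucleolar RNAs (snoRNAs) were examined as binding sites of NHR-237, a nuclear hormone receptor of Caenorhabditis elegans. Of 46890 annotated nuclear genes, all 346 of biotype snoRNA were taken, each extended by 250 bp on both sides to make a locus of 554 to 844 bp. A locus was called occupied in a peak list when the summit of a region of that list lay in it. Of the 346 genes, 216 lay wholly within the span of a protein-coding gene on either strand and 130 did not. The binding data are from ChIP-seq, in which DNA bound by a protein is precipitated and sequenced. The sample was whole L1 larvae, mixed in sex, of strain OP228, whose genotype is unc-119(ed3) III with the integrated insertion wgIs228 that expresses NHR-237 fused to eGFP. There was 1 group of 2 biological replicates, with no second condition, and the antibody is labelled with the name of the factor while the experiment is described as one against the eGFP fusion. The labels do not give the copy number of the insertion, and whole larvae mix all tissues, so weak binding in many cells and strong binding in few cannot be told apart. Control libraries were not analysed here and read depth is unknown, so the intervals below cover counting error only.

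Most snoRNAs guide the modification of ribosomal and spliceosomal RNA. Box C/D snoRNAs carry a C box near the 5′ end and a D box near the 3′ end and direct 2′-O-methylation, and box H/ACA snoRNAs end in an ACA motif and direct pseudouridylation. A snoRNA can be cut out of the intron of a host gene, whose own promoter then drives it, or it can have a promoter of its own. In nematodes and other animals, small RNA promoters of the second kind can carry a proximal sequence element bound by the SNAP complex (SNAPc), or the B box of RNA polymerase III promoters, which is best known from tRNA genes.

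NHR-237 summits lay just upstream of a subset of snoRNA genes, in introns of host genes as well as between genes, and the same stretches often held 1 of 2 sequence patterns. The first, called the paired pattern here, is GCGNAAC, then any 8 bases, then TGTC, on the strand of the snoRNA. Its letters were read from the sequences of occupied loci, so its presence there is a description, and whether it is a proximal sequence element was not tested. Shown here, 5′ to 3′ with the pattern in capitals, are the 120 bases before 7 of the genes that were occupied in the most stringent peak list, with the annotated snoRNA starting at the next base. The sequences are RefSeq's for WBcel235 (the coordinates of ce11), at chrII:15025894-15026013 (minus strand) for Y53F4B.47, chrIV:9511467-9511586 (minus strand) for smy-2, chrIV:8428740-8428859 (minus strand) for T26A8.6, chrII:11224062-11224181 (plus strand) for T06D8.11, chrV:8500459-8500578 (plus strand) for ZK994.7, chrV:8348988-8349107 (plus strand) for C08D8.3 and chrIV:4880851-4880970 (minus strand) for T08B6.64.
Y53F4B.47: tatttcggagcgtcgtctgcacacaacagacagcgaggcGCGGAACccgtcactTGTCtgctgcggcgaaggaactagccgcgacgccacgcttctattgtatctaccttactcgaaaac
smy-2: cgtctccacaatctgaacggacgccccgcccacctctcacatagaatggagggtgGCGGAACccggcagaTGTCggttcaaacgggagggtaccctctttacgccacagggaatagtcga
T26A8.6: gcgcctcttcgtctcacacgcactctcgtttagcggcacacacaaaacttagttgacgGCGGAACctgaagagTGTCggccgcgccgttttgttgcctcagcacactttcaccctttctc
T06D8.11: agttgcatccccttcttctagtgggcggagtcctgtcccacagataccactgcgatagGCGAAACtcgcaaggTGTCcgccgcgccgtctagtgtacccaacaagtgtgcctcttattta
ZK994.7: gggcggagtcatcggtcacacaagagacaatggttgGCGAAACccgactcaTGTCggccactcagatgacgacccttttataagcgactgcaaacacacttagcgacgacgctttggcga
C08D8.3: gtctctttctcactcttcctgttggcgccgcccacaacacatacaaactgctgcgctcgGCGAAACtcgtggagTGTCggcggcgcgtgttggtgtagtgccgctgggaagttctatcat
T08B6.64: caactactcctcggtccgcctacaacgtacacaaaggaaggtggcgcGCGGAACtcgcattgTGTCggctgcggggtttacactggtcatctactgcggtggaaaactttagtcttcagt

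The second pattern is the B box, GTTCNANNC, again on the strand of the snoRNA. It is shown for the 4 genes of the same list that carry it, with the match nearest the gene in capitals. For C51F7.3 that match lies within C51F7.4, the neighbouring snoRNA gene on the same strand. Their 120 upstream bases lie at chrIV:11549865-11549984 (minus strand) for F12F6.11, chrV:19643188-19643307 (minus strand) for Y43F8C.22, chrV:12303588-12303707 (plus strand) for C51F7.3 and chrII:10840197-10840316 (plus strand) for M106.6.
F12F6.11: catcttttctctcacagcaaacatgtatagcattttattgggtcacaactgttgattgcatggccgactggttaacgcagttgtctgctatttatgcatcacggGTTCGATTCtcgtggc
Y43F8C.22: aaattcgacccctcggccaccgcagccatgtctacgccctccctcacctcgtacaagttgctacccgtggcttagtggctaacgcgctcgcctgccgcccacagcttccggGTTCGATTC
C51F7.3: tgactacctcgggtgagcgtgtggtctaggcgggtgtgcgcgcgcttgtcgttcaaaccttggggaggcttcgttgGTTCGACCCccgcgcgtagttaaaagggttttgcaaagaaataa
M106.6: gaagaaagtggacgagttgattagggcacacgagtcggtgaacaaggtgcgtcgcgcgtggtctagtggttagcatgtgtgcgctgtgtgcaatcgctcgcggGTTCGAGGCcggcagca

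The genes themselves are short, with a median of 130 bp and a range of 54 to 344 bp. The 5 below were chosen to show the D box motif CTGA near the 3′ end and, where present, the C box motif TGATGA, both in capitals. C08D8.3 and C51F7.3 are hosted, M7.15 is not, and T26A8.6 and T08B6.64 are like copies that were both occupied. They lie at chrIV:11083147-11083243 (plus strand) for M7.15, chrV:8349108-8349187 (plus strand) for C08D8.3, chrV:12303708-12303783 (plus strand) for C51F7.3, chrIV:8428614-8428739 (minus strand) for T26A8.6 and chrIV:4880738-4880850 (minus strand) for T08B6.64.
M7.15: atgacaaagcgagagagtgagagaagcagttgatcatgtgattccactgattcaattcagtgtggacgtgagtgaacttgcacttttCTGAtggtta
C08D8.3: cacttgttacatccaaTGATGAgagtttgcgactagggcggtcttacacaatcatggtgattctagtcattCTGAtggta
C51F7.3: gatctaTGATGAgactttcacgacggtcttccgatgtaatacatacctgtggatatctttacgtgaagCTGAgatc
T26A8.6: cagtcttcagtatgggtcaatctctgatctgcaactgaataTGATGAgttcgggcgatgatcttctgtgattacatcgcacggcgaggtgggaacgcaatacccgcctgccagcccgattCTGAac
T08B6.64: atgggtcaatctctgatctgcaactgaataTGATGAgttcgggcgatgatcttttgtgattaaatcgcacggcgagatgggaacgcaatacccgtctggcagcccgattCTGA
Over the 113 aligned bases of the last pair, 108 were identical (95.6%). Reads from such copies may have been split or assigned to either by the authors' alignment, so their separate values are uncertain.

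The share of snoRNA loci with a summit was above that of the genome in each of the 4 peak lists. The irreproducible discovery rate (IDR) step compares the ranks of regions between replicates. The list that passed it held 970 regions, and its summits lay in 22 of 346 loci (6.36%, 95% exact interval 4.03 to 9.47). Of 600 bp windows tiling the nuclear genome, 0.578% held such a summit. The list made from both replicates pooled is labelled as peaks and background for input to the IDR step, so its regions are not all called sites. It occupied 74 loci (21.4%) against 4.53% of windows. Replicate 1 occupied 111 loci (32.1%) against 12.6%, and replicate 2 103 loci (29.8%) against 14.7%. Both replicate lists occupied the same 72 loci (20.8%), and 204 loci had no summit in any list. Merged, the loci covered 0.214% of the genome and held 2.16% of IDR summits. The density there was 97.8 summits per Mb against 9.48 elsewhere in the IDR list, and 349 against 76.2 in the pooled list. In the replicate lists, which like the pooled list had not passed the IDR step, the contrast was smaller. It was 517 against 216 summits per Mb in replicate 1 and 512 against 256 in replicate 2.

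A smaller share of loci was occupied inside protein-coding genes than outside in every list, and the same was true of windows. Both shares of loci were above those of windows in their own part of the genome. Loci share regions and come from 1 group, so no test of such differences was made, here or below. In the IDR list 11 of 216 inside loci (5.09%, 2.57 to 8.93) and 11 of 130 outside loci (8.46%, 4.3 to 14.6) were occupied, with overlapping intervals. Windows centred inside protein-coding genes had a share of 0.323% and those outside 1.01%. In the pooled list the shares were 35 of 216 (16.2%, 11.6 to 21.8) and 39 of 130 (30%, 22.3 to 38.7), against 3.47% and 6.3% of windows. Among inside loci, 9 of 170 that were wholly intronic (5.29%) and 2 of 46 that touched a host exon (4.35%) were occupied in the IDR list. Hosts were on the other strand alone for 33 loci, of which 0 were occupied in the IDR list (exact upper limit 10.6%) and 7 in the pooled list. Of other small RNA genes with the same extension, 27.1% of 612 tRNA, 16.3% of 129 snRNA, 6.9% of 261 miRNA and 5.53% of 15363 piRNA genes were occupied in the pooled list. In the IDR list tRNA genes stood at 5.23% and snRNA genes at 6.2%, close to the 6.36% of snoRNA loci, and miRNA genes at 1.53%. No snoRNA gene had an annotated tRNA gene within 250 bp.

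**Figure D1:**
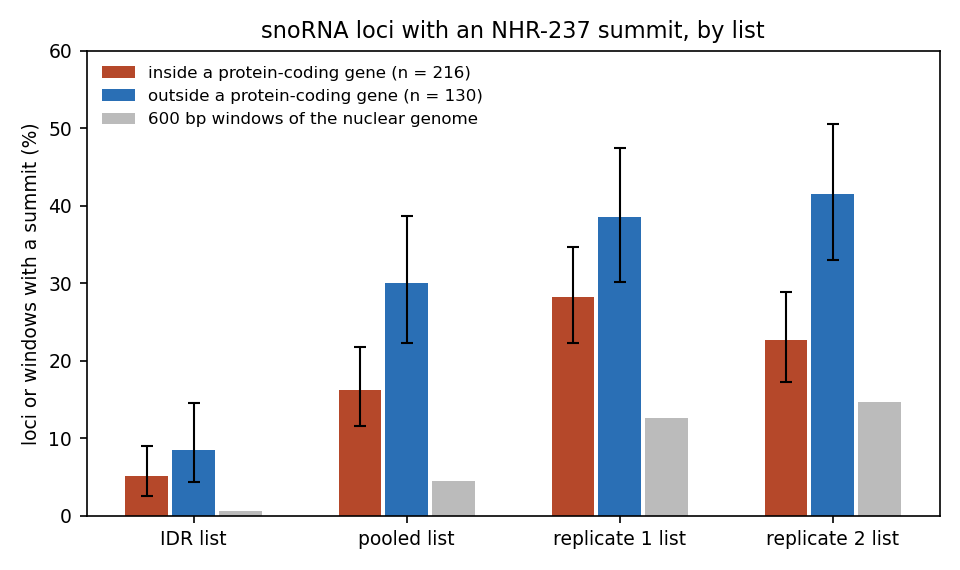
Share of snoRNA loci with a summit in each peak list, in percent, inside (red) and outside (blue) protein-coding genes, with exact 95% intervals for counting error; grey bars give the share of 600 bp windows of the genome. Outside loci stand highest in each list, at 8.46% in the IDR list and 30% in the pooled list. The grey bars are not split into inside and outside, though windows outside also have the larger share.

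Summits of the IDR and pooled lists clustered at the 5′ end of the snoRNA genes, and the replicate lists held more summits past the 3′ end. Of the 22 IDR summits counted per locus, 17 were upstream of the gene, 5 in the gene and 0 downstream, at a median of 52 bp upstream of the 5′ end. In the pooled list, of 76 such summits 54 were upstream, 16 in the gene and 6 downstream. Within 100 bp of the gene the pooled counts were 42 upstream and 3 downstream. Replicate 1 had 72 upstream, 22 in the gene and 20 downstream, with 56 and 9 within 100 bp. Replicate 2 was the least asymmetric, with 61, 22 and 29, and 31 and 15 within 100 bp. Inside loci had 19 pooled summits in the 100 bp upstream and 2 in the 100 bp downstream, and outside loci 23 and 1. Upstream of a gene can also mean the promoter of a neighbour, here 1000 bp before to 200 bp after any protein-coding start. Without the summits in such promoters, the pooled list still had 30 upstream, 12 in the gene and 3 downstream. The IDR list then had 8, 4 and 0, replicate 1 had 41, 16 and 15, and replicate 2 had 34, 15 and 23.

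**Figure D2:**
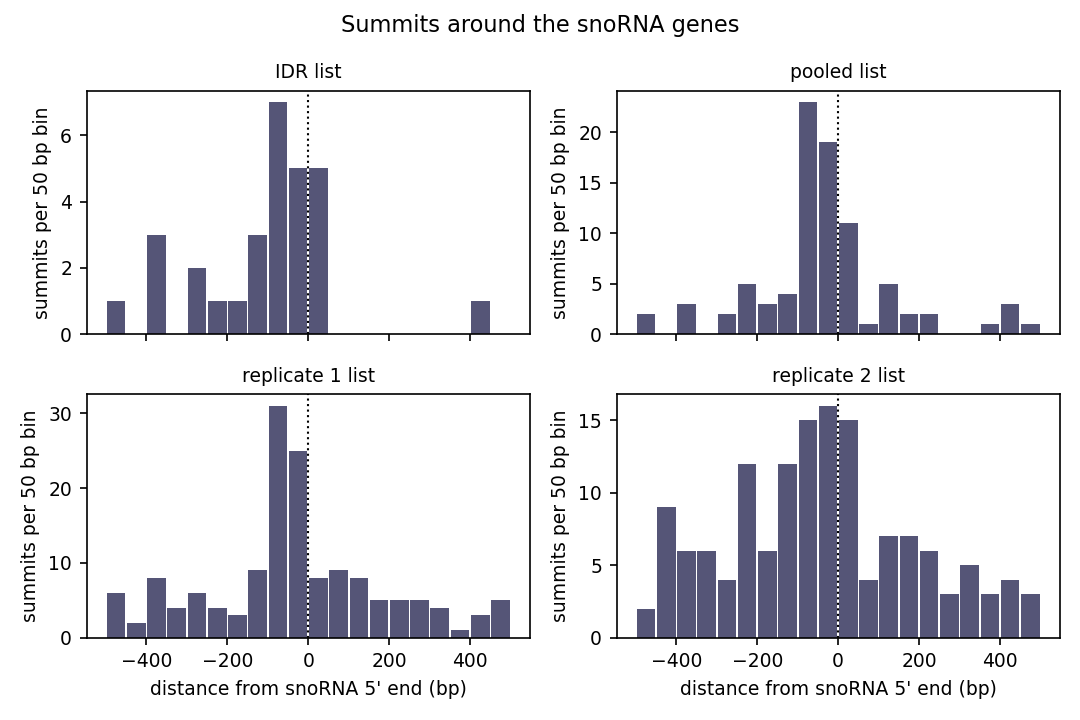
Number of summits per 50 bp bin by distance from the snoRNA 5′ end, in bp along the strand of the snoRNA (negative is upstream), for 346 genes and the 4 lists; the dotted line marks the 5′ end. In the pooled list the bins from -100 to -50 and from -50 to 0 hold 23 and 19 summits, and the bin from 50 to 100 holds 1.

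The 22 occupied loci of the IDR list fell on 21 distinct regions, with signal values from 54.2 to 278 and a median of 68.2, against 74.0 for the whole list. The signal value is the authors' own score for a region, on a scale that is not stated, and is compared only within a list. All 22 also held a summit in both replicate lists, which the making of the IDR list largely sets. Among the 970 strongest regions of each replicate, 11 loci were present in both, 5 in replicate 1 alone, 5 in replicate 2 alone and 1 in neither. The ranks of the 22 had a median of 484 and a worst of 3238 in replicate 1, and 499 and 4375 in replicate 2. In the pooled list the 22 had the same range and median of signal values and ranks as in the IDR list. That all 22, and 0 of the 52 loci found in the pooled list and not in the IDR list, were among the 970 strongest pooled regions is therefore no separate check.

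**Figure D3:**
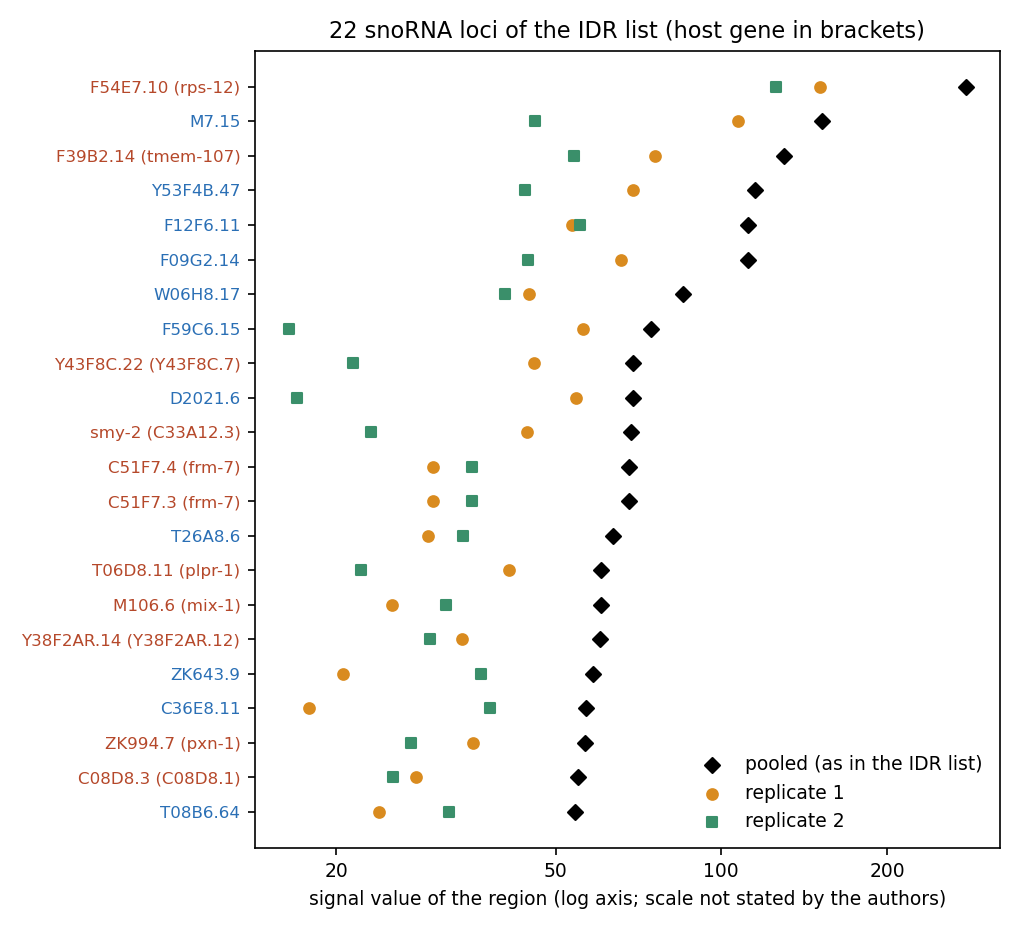
Signal value of the region at each of the 22 snoRNA loci of the IDR list (log axis, unitless score of the authors' peak caller), in the pooled list, replicate 1 and replicate 2, each on the scale of its own list; names of loci inside protein-coding genes are red with the host in brackets, others blue. F54E7.10 stands highest in all 3, at 278, 151 and 126.

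Of the 11 occupied loci outside protein-coding genes, 7 had their summit in the promoter of a neighbouring protein-coding gene as well. The strongest was M7.15, with a signal of 152 in the pooled data, 107 in replicate 1 and 45.9 in replicate 2. Its summit lay 116 bp upstream of the snoRNA and also in the promoters of klc-1, a kinesin light chain gene, and let-70, a gene of a ubiquitin-conjugating enzyme, the nearest start being 704 bp away. Y53F4B.47 had 115 in the pooled data, 69.0 in replicate 1 and 44.1 in replicate 2, with the summit 86 bp upstream of the snoRNA and 135 bp upstream of cmtr-1, a cap methyltransferase gene. For these loci, binding at the snoRNA and at the neighbour cannot be told apart. F12F6.11 was the strongest with no such promoter at hand. Its signal was 112, with 53.6 and 55.4 in the replicates, and its summit was 68 bp upstream of the snoRNA, before the B box shown above, and 1161 bp from the nearest protein-coding start.

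The other outside loci of high signal again had summits in protein-coding promoters. F09G2.14 (chrV:7196237-7196580) had 112 in the pooled data, 65.6 and 44.5 in the replicates and a summit 52 bp upstream of the snoRNA, in the promoters of F09G2.2 and attf-2. W06H8.17 (chrV:6227355-6227550) had 85.4, with 44.8 and 40.5, and a summit 193 bp upstream, in the promoter of W06H8.6. Replicates were alike in order for these but not for the next pair. F59C6.15 (chrI:10516978-10517150) had 74.6, with 56 in replicate 1 and 16.4 in replicate 2, and a summit in the promoter of F59C6.18. That summit was 105 bp upstream of the snoRNA and 800 bp from the nearest protein-coding start. The summit in replicate 2 was 156 bp downstream of the 5′ end of the snoRNA. D2021.6 (chrX:8546076-8546204) had 69.0, with 54.5 and 17.0, and its summit lay 31 bp upstream of the snoRNA and 214 bp upstream of sdha-1, the gene of a succinate dehydrogenase subunit. The remaining 4 were named after their values were seen. T26A8.6 (63.7), ZK643.9 (58.5) and T08B6.64 (54.2) had summits within 28 bp of the 5′ end and in no protein-coding promoter. C36E8.11 (56.8) lay beside tif-1A, whose product starts RNA polymerase I transcription. Its summit was 60 bp upstream of the snoRNA and 261 bp upstream of that gene, with 17.9 in replicate 1 and 38.1 in replicate 2.

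Of the 11 occupied loci inside protein-coding genes, 8 had a summit in no protein-coding promoter, and none of the 11 summits lay in an exon of the host. The exceptions stood at a host promoter. F54E7.10 (chrIII:5679378-5679509), in the ribosomal protein gene rps-12, had the highest signal of any snoRNA locus, 278, with 151 and 126 in the replicates, and ranked 14 in the IDR list. Its summit lay 238 bp before the snoRNA and 158 bp before the start of rps-12, and also 135 bp upstream of the neighbouring gene ska-3. It is so near the limit of the extension that it would be missed with 100 bp. F39B2.14 (chrI:14759178-14759412), in the ciliary gene tmem-107, had 130, with 75.9 and 54.0, and its summit was 111 bp before the snoRNA, 50 bp upstream of the start of tmem-107 and in the promoter of rps-26. The gene smy-2 had 68.4, with 44.4 and 23.1. It was counted as a snoRNA by its annotated biotype alone, and whether its product is one was not checked. The summit at smy-2 was 4 bp into that gene and 252 bp upstream of an internal start of its host, C33A12.3. It was also in the promoter of C33A12.4.

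The 8 others lay away from the starts of their hosts. Y43F8C.22 (chrV:19643050-19643187) had a signal of 69.2, with 45.8 and 21.5 in the replicates, and its summit was 17 bp into the snoRNA and 860 bp from the start of its host Y43F8C.7. C51F7.4 (chrV:12303599-12303693) and C51F7.3 lie next to each other in an intron of frm-7, a FERM domain gene, and share 1 region with 67.9, and 30.0 and 35.3 in the replicates. That summit was 34 bp into C51F7.4, 75 bp upstream of C51F7.3 and 1149 bp from the nearest start of frm-7. The following 5 were named after their values were seen. M106.6 lay 16050 bp into mix-1, a condensin subunit gene, and had 60.4, with 25.2 and 31.6, at 21 bp upstream of the snoRNA. ZK994.7 lay in pxn-1, a peroxidasin gene, with 56.5, and 35.4 and 27.3 in the replicates, at 99 bp upstream of the snoRNA and 5591 bp from the start of pxn-1. T06D8.11 in plpr-1 (60.4), Y38F2AR.14 in Y38F2AR.12 (60.3) and C08D8.3 in C08D8.1 (54.9) had summits 27, 47 and 52 bp upstream of the snoRNA and 1850, 1149 and 3297 bp from the nearest start of the host, which for Y38F2AR.12 is an internal one. For none of these 8 did the host promoter hold an IDR summit.

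**Figure D4:**
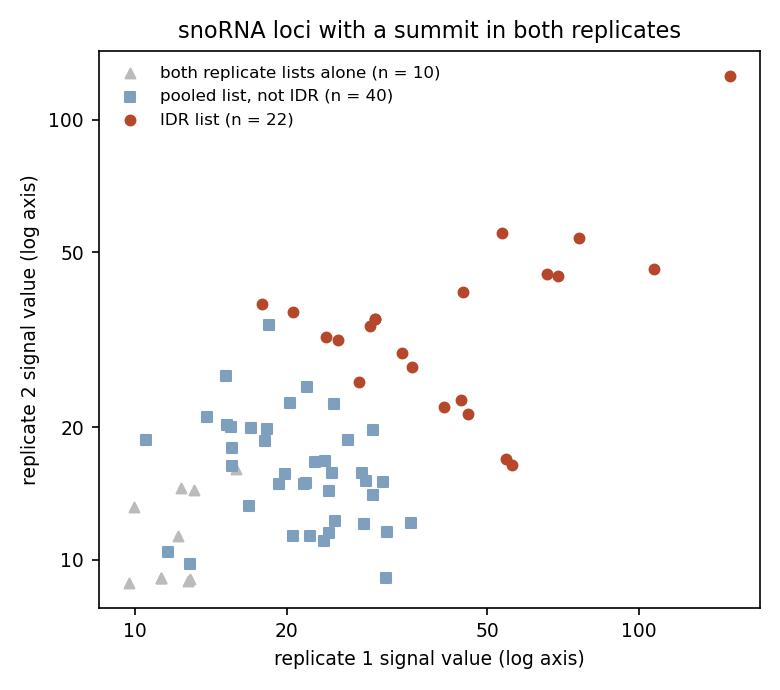
Signal value in replicate 1 against replicate 2 (both log axes, unitless) for the 72 snoRNA loci with a summit in both lists, by the most stringent list that holds them. The 22 IDR loci lie above 17.8 in replicate 1 and above 16.3 in replicate 2.

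A further 52 loci were occupied in the pooled list and not in the IDR list, 40 of them in both replicates, with pooled signals from 23.9 to 51.9. The weakest of the 970 IDR regions had 52.6, so the strongest of the 52 fell just short. They were T02E1.9 (chrI:8224474-8224544), outside protein-coding genes (51.9, with 18.4 and 34.1 in the replicates), and Y37E3.20 (chrI:2085037-2085155) in pcyt-2.1 (51.4, with 24.8 and 22.6). ZK484.9 (chrI:6082738-6082805) in haf-9, a transporter gene on the other strand, had 49.7, with 26.4 and 18.7, D1046.6 (chrIV:8927265-8927393) in cfim-2 had 49.1, with 28.7 and 15.1, and C18A3.12 (chrII:5701662-5701726), outside, had 48.6, with 29.7 and 19.7. Summits of the first 2 lay 139 and 59 bp upstream of the snoRNA, and those of ZK484.9 and C18A3.12 36 and 77 bp upstream, while that of D1046.6 was 13 bp into the gene. Another 68 loci had a summit in a replicate list alone, 10 of them in both.

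A larger share of loci with the paired pattern or the B box was occupied than of the rest in the pooled list, inside and outside protein-coding genes alike. Each was found in the 120 bp before 33 snoRNA genes, with no gene in both groups, and 280 had neither. In the pooled list 16 of 33 with the paired pattern (48.5%, 30.8 to 66.5) and 18 of 33 with the B box (54.5%, 36.4 to 71.9) were occupied, against 40 of 280 with neither (14.3%, 10.4 to 18.9). The IDR list held 8 (24.2%), 4 (12.1%) and 10 (3.57%). C51F7.3 and C51F7.4, which share a region, are counted with the B box and with neither, in that order. Inside protein-coding genes the pooled shares were 8 of 17, 9 of 18 and 18 of 181, and outside 8 of 16, 9 of 15 and 22 of 99. In the IDR list they were 4 of 17, 3 of 18 and 4 of 181 inside. Outside they were 4 of 16, 1 of 15 (6.67%, 0.169 to 31.9) and 6 of 99 (6.06%), so there the B box loci did not stand above the rest. The letters of the paired pattern came from occupied loci, so the same shares were taken without the 22 IDR loci. They were 8 of 25 (32%, 14.9 to 53.5), 14 of 29 (48.3%, 29.4 to 67.5) and 30 of 270 (11.1%, 7.62 to 15.5) in the pooled list, and the pooled loci had been in view as well. Of the 8 IDR loci with the paired pattern, 5 had the summit in no protein-coding promoter, as did 4 of 4 with the B box and 3 of 10 with neither.

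The paired pattern lay in a narrower stretch than the B box. All 33 paired patterns began between 89 and 58 bases before the gene, with a median of 63, and 0 snoRNA genes carried the pattern only on the opposite strand. Pooled summits at these loci lay a median of 28 bp downstream of its first base, with a range from 30 bp upstream to 191 bp downstream. The B box match nearest the gene began between 20 and 9 bases before it in 25 of 33 cases and up to 68 bases before it in the rest, and pooled summits lay a median of 23.5 bp upstream of its first base. Of 19973 protein-coding genes, 5 had the paired pattern in the same window (0.025%), against 32 of 129 snRNA genes (24.8%) and 1 of 612 tRNA genes (0.163%). The B box on the same strand was found before 1.68% of protein-coding, 2.33% of snRNA and 1.47% of tRNA genes. A tRNA gene has its own B box inside the gene, which this window leaves out. Patterns were also present at loci with no summit in any list, 10 with the paired pattern and 8 with the B box.

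**Figure D5:**
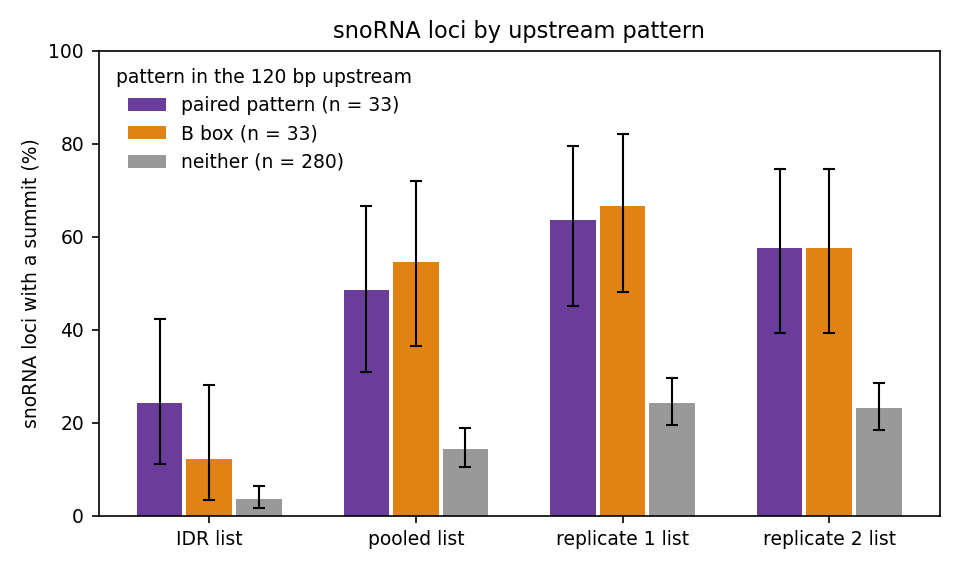
Share of snoRNA loci with a summit in each list, in percent, by the pattern in the 120 bp before the gene (paired pattern, B box or neither), with exact 95% intervals for counting error. In the pooled list the groups stand at 48.5%, 54.5% and 14.3%.

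A larger share of occupied than of unoccupied snoRNA genes ended in the letters of a D box. The D box motif CTGA was found in the last 12 bases of 12 of 22 IDR genes (54.5%), 16 of 52 in the pooled list only (30.8%), 13 of 68 in a replicate list only (19.1%) and 30 of 204 in none (14.7%). ACA in the last 8 bases, as in H/ACA snoRNAs, was at 27.3%, 25%, 27.9% and 27% in the same groups. Median gene length was 119.5 bp in the IDR group and 133 bp in the group with no summit. Both motifs are short and the annotated ends were taken as given, so these are shares of letters and not a classification of the snoRNAs.

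A larger share of host genes than of all protein-coding genes was bound at the promoter. Of 192 protein-coding genes that hold a snoRNA, 45 had an IDR summit in the promoter (23.4%, 17.6 to 30.1), against 4.66% of 19973 protein-coding genes. Of those 45, 3 had an occupied snoRNA locus (rps-12, tmem-107 and C33A12.3), and 42 did not. The 7 other hosts with an occupied locus had no bound promoter. With 3 bound and 7 not, the hosts with an occupied locus were bound at a share near the 23.4% of all hosts, on few genes. The strongest bound hosts were cdc-48.1, the gene of the p97 ATPase (376), iff-2, which encodes eIF5A (312), rps-12 (278), rpl-15 (263) and larp-1 (186), and apart from rps-12 their snoRNA loci held no IDR summit. Most inside loci held none, since 11 of 216 (5.09%) were occupied in that list. These hosts were named after their values were seen.

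Ribosomal protein genes, here only those named rpl-, rps- or rla-, made up part of this. Any ribosomal protein gene under another name was counted with the other genes. Among hosts, 11 of 13 ribosomal protein genes were bound (84.6%, 54.6 to 98.1), beside 45 of 68 that host no snoRNA (66.2%, 53.7 to 77.2). Without the genes so named, 34 of 179 hosts were bound (19%, 13.5 to 25.5), against 4.27% of protein-coding genes that are neither hosts nor so named. The 13 hosts so named hold 19 snoRNA loci, of which 1 was occupied, F54E7.10, near the share of all inside loci in the IDR list (11 of 216, 5.09%). It was the only one of the 19 in the pooled and in both replicate lists too, where 16.2%, 28.2% and 22.7% of all inside loci were occupied. In the 10 other bound ribosomal hosts the IDR summit lay in the promoter and none lay at the snoRNA.

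The genes of proteins that package snoRNAs or assemble their particles, and those of SNAPc, were read in the same way. Of a list of 19 such genes 18 were matched, 7 of them SNAPc genes. An IDR summit lay in the promoter of 8 of the 18, against 4.66% of all protein-coding genes. All 4 core proteins of box C/D particles were among them, namely fib-1, the fibrillarin methyltransferase gene (77.2, with 42.2 and 27.7 in the replicates), nol-56 (62.3, with 21.6 and 33.4), nol-58 (57.2, with 21.5 and 33.2) and snu-13 (54.7, with 20.9 and 30.9). Their summits lay between 84 and 317 bp upstream of the start, and those of fib-1, nol-58 and snu-13 were also in the promoter of mut-15, zip-4 and rsp-7. nol-56 is itself the host of 4 snoRNAs, the most of any host, and none of these had a summit in any list. The same was true of 140 of all 216 inside loci.

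Box H/ACA proteins were bound at 2 of 4 genes, Y48A6B.3, the homolog of NHP2 (77.3, with 46.1 and 28.5), and nola-3, the homolog of NOP10 (67.7, with 36.7 and 27.1). Their summits also lay in the promoters of fipr-17 and C25A1.16. The gene of the pseudouridine synthase, dkc-1, had a summit in the pooled list (48) and in both replicate lists (30.9 and 16.8), and garr-1 had one in replicate 1 alone. The assembly ATPase gene ruvb-2 (73.2, with 30.0 and 42.3) and dao-5, the homolog of the nucleolar protein Nopp140 (53.8, with 25 and 30.5), were bound, and ruvb-1 was in the pooled list (35.2). None of 7 SNAPc genes had an IDR summit in the promoter (exact upper limit 41%), while snpc-3.4 had one in the pooled list (37.7) and snpc-4 one in each replicate list.

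With an extension of 100 bp 17 loci were occupied in the IDR list, and with 500 bp 30. Just inside the limit of 250 bp lay the summits at W06H8.17 (193 bp from the gene, signal 85.4) and F54E7.10 (238 bp, 278). Just outside lay those at K02F3.15, in zip-2 (259 bp downstream, 142), and F37F2.4 (266 bp upstream, 55.8).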

How the data were processed

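Peak lists on ce11 from 2 biological replicates were used. Per the deposited readme files, a replicate list was made by setting the reads of that replicate against control reads, the pooled list used the reads of both, and the IDR list was derived from the other 3. The signal value is a score given by the authors' peak caller, the deposited −log10 q column was not tested, and the deposited summit column gave positions. The sources used here do not give the aligner, the caller or the IDR threshold. The labels give fragments of 150 to 350 bp. The lists on ce10 were not used.

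Genes came from Ensembl release 115 of WBcel235 and bases from RefSeq's sequence of that assembly. A summit is column 2 plus column 10. With 1 group there was no contrast, so shares have exact (Clopper-Pearson) 95% intervals and no test was made. Loci share regions and hosts and are not replicates. Python 3.11.15, pandas 2.3.3 and scipy 1.17.1 were used, and counting was tested on simulated lists.

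The loci and gene lists were chosen with earlier results of these data known. Named were the 12 IDR loci of highest signal, the 5 strongest found in the pooled list only, those at the 250 bp limit and the bound snoRNP genes. Other IDR loci, bound hosts and the sequences of unnamed loci were added after their values were seen, as were the paired pattern, the 120 bp window and the removal of summits in protein-coding promoters. Alternatives were other extensions, overlap of regions, merged loci, other promoter windows, fewer regions and each replicate alone. The name snpc-3.3 matched no protein-coding gene.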

Additional observations from a re-analysis of the deposited data

How the results depend on the processing

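Over 14 results and 67 alternatives, 38 values stayed within 1.5 times the reported count, 29 moved further (or by more than the spread of the replicates, for the distance), and 0 reversed. Only the distance could have reversed, since a count has no sign. The spread used for the distance was 1.06 bp and rests on 2 replicate medians, so small changes were called moved. With the annotated gene alone (0 bp) occupied loci fell to 5 in the IDR list (3 inside, 2 outside), 16 in the pooled list and 22 in each replicate list. With 100 bp replicate 2 had 65, and with 500 bp 17 inside loci were occupied. Among the IDR regions above the list's median signal 8 loci were left (2 inside, 6 outside), with a median distance of -108 bp, 25 bound hosts and 2 snoRNP genes. Without summits in protein-coding promoters 12 IDR loci were left, 4 of them outside. Among the 970 strongest regions the pooled and replicate 1 lists each occupied 22 loci, replicate 2 occupied 17 and both 11. The pooled value is no separate check, since those 22 are the IDR loci. With 300 bp on both sides as promoter, 28 hosts were bound. In the shorter motif window CACGTG was in 0, GAGAGA in 3, GTTCNANNC in 1 and TATAAA in 1 of 11 outside loci. With the IDR list replaced by the 970 strongest regions of 1 replicate, 17 to 22 loci were occupied, 7 to 11 inside (7 without replicate 1) and 10 to 11 outside, with a median distance of -69.5 to -68 bp and 5 to 8 snoRNP genes (5 without replicate 2). The cause of these shifts was not tested. Depth is unknown, so a locus with no summit is not shown to be unbound.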

Other observations

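Other short motifs were searched in 250 bp before to 50 bp after the snoRNA start, on both strands. GAGAGA was found at 5 of 11 outside loci of the IDR list (45.5%) and 43.6% of outside loci of the pooled list, beside 15.6% of outside loci in no list and 21.8% of protein-coding genes. At inside loci the shares were 18.2%, 28.6% and 20.7%. TATAAA was at 27.3% and CACGTG at 9.09% of outside IDR loci, beside 26.6% and 6.25% of outside loci in no list. A match says only that these letters are in the window, and with 11 loci each share rests on few genes.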
